A study of Chelon labrosus with 24 samples.

Results

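Genes for 3 plasma proteins of defence, a-2_macroglobulin, C3 and Haptoglobin, were followed in the liver of the thicklip grey mullet (Chelon labrosus), a coastal fish, through 12 probes of a custom 1-colour array. Probes were chosen by the gene name in the scanner files, which had to equal a-2_macroglobulin or C3 or to contain haptoglobin, ignoring case and punctuation. They make up 3 of 160 genes and 12 of 638 probes, with 4 probes for each gene. Immature mullets were caged in a polluted harbour, and liver RNA was measured on 24 arrays in 4 groups of 6: inner harbour at the second sampling, outer harbour at the second sampling, inner harbour at the first sampling and outer harbour at the first sampling. The sample labels give day 21 for the second sampling and day 5 for the first, while the series text gives 15 and 3 days of exposure. Each part of the harbour is known only through its own caged fish, so a cage and its place cannot be told apart. A liver sample is called a fish here, although the labels give only sample numbers and do not say that no fish was sampled more than once. The p-values therefore rest on the spread among samples, which may be technical.

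Alpha-2-macroglobulin is a plasma protein that traps proteases of many kinds in a cage-like complex, and it is made in the liver. C3 is the central protein of the complement system, on which its activation pathways meet, and it belongs to the same protein family as alpha-2-macroglobulin. Several bony fishes carry more than a single C3 gene. Haptoglobin binds haemoglobin freed from red cells, and in mammals the liver makes more of it in the acute phase response to injury and infection.

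The 12 probes fall on 5 separate stretches of sequence, and the stretches are shown because the probes of C3 differed by stretch. Each probe is 55 bases long and was spotted 4 times on an array. Stretch A of alpha-2-macroglobulin is read by 3 probes that share 53 bases, and stretch B by 1 probe. Stretches A and B of C3 are read by 2 probes each, which share 54 bases. All 4 haptoglobin probes share 52 bases of 1 stretch. One probe of each stretch is printed 5′ to 3′, as the scanner files give it. Capitals mark the bases that every probe of that stretch shares, and lower case marks the bases that shift from probe to probe.
a-2_macroglobulin stretch A: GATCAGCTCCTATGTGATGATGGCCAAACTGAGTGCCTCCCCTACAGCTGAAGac
a-2_macroglobulin stretch B: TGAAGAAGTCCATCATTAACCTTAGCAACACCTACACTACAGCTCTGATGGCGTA
C3 stretch A: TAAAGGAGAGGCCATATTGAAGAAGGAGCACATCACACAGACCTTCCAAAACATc
C3 stretch B: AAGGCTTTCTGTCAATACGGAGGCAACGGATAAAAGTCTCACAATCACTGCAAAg
Haptoglobin: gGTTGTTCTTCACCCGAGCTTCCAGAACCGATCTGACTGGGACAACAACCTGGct
The probes carry no genome coordinates. Where each stretch lies in its transcript, and whether both C3 stretches belong to 1 transcript, was not determined here.

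All 12 probes were well above background on all 24 arrays. A level below is the log2 signal of a probe minus the array's 75th percentile over all probes, so it can be compared between arrays but not between probes. A difference is in log2 units, given with its standard error from limma's model of 6 fish against 6. Calls were made where p, adjusted by Benjamini-Hochberg over the 476 probes tested, lay under 0.05. The spots of a member probe varied little within an array, with a median SD between 0.0288 and 0.142 over the 12 probes. Probes of the same stretch moved almost as one over the 24 arrays, with r between 0.997 and 1.00 in 11 pairs, so they are repeat readings of 1 site and not independent support.

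Arrays had 371 to 484 probes well above background, and arrays of a group correlated with r from 0.925 to 0.991 over probes. Of 10 hepatocyte marker genes on the array 8 passed the filter. Among all genes 129 of 160 passed, a similar share, so this count does not mark the tissue. Fibrinogen_G, a fibrinogen chain made by hepatocytes, was well above background on 24 arrays, and Choriogenina_L, also on the list, on 8. The summed level of the 8 markers was 8.34 to 8.77 in inner fish and 8.26 to 8.64 in outer fish of the second sampling. At the first sampling it was 8.02 to 8.54 in inner fish and 8.02 to 8.96 in outer fish. Such a sum follows its brightest genes, here Fibrinogen_G, Beta-Fibrinogen and Apo_A1, and does not show that each marker was steady. At the first sampling Transferrin was called lower in inner fish (-0.94) and Choriogenina_L higher. Between samplings in the inner harbour ApoE (-3.41) and Choriogenina_L were called lower, and CYP7 (3.16) and Transferrin (0.78) higher. In the outer harbour ApoE (-4.28) was called lower and CYP7 (1.20) higher between samplings. At the second sampling ApoE (1.28) and CYP7 (1.15) were called higher in inner than in outer fish. VTG-A and VTG-B, egg yolk precursors made by the liver under estrogen, did not pass the filter. No marker of red cells or muscle was on the array. In whole liver, fewer cells of a type and less RNA per cell cannot be told apart.

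Alpha-2-macroglobulin was the only member with all 4 of its probes called in a comparison. It was lower in inner than in outer livers at the first sampling, and within the inner harbour it was higher at the second sampling than at the first. Both differences were close to 2-fold and were seen by all 4 probes on both stretches.

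At the first sampling, stretch A of a-2_macroglobulin had levels of 2.61, 2.94 and 3.18 (lowest, median and highest) in inner fish. The outer fish had 3.48, 3.93 and 4.53. Every inner fish lay below every outer fish. The mean was 2.95 ± 0.22 in inner fish and 3.92 ± 0.37 in outer fish (SD, n = 6 each), a 1.97-fold lower signal with a log2 difference of -0.98 ± 0.18 (adjusted p = 0.00106 by limma). On stretch B the inner fish had 1.70, 1.92 and 2.60, against 2.60, 3.03 and 3.81 in outer fish. The highest inner fish and the lowest outer fish on stretch B were level to the second decimal, so those groups only just did not overlap. The difference there was -1.01 ± 0.21 (adjusted p = 0.00428).

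These 4 probes were the only ones of the 12 called for the site difference at the first sampling, where 14.5% of all tested probes were called. All 4 were lower in the inner harbour, against 9.24% of all tested probes called lower and 5.25% called higher. The same 4 of the 12 had groups that did not overlap, against 2.52% of all tested probes. An exact permutation test over the 924 relabelings gave p = 0.00216 on each stretch, two-sided, the smallest p that 6 against 6 can give. With spike-in scaling stretch A had -1.01 (adjusted p = 0.0900) and stretch B -1.04 (adjusted p = 0.143), and stretch B had -0.76 (adjusted p = 0.0852) with the 75th percentile taken over probes detected on all arrays.

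A pair of leukocyte markers were on the array and tested, Liza_aurata_immunoglobulin and MHC_II, an antigen presentation gene. At the first sampling the brightest probe of each was lower in inner fish, as alpha-2-macroglobulin was (adjusted p = 0.0364 and 0.0322 by limma). Calls fell on 1 of 2 tested immunoglobulin probes and on 2 of 4 MHC_II probes. With spike-in scaling only 1 of all tested probes was called lower, so both markers cannot have passed there. Only 1 of the 6 inner fish, against all 6 outer fish, had MHC_II well above background, which leaves its difference without a resolved size. The summed level of both was -6.11 to -4.00 in inner fish and -4.13 to -1.70 in outer fish. Their part in the alpha-2-macroglobulin difference was not tested. Trypsin, the marker of exocrine pancreas, was not called in any of the 5 comparisons and ran from -4.34 to 2.85 in inner fish and from -3.69 to 1.23 in outer fish of the first sampling.

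Within the inner harbour, stretch A of a-2_macroglobulin had 3.68, 4.02 and 4.32 (lowest, median and highest) in fish of the second sampling. The fish of the first sampling had 2.61, 2.94 and 3.18. Again no fish of one sampling reached the other. The mean was 4.02 ± 0.24 at the second sampling and 2.95 ± 0.22 at the first (SD, n = 6 each), a 2.10-fold higher signal with a difference of 1.07 ± 0.18 (adjusted p = 6.10e-05 by limma). Stretch B had 2.67, 3.20 and 3.41 at the second sampling, against 1.70, 1.92 and 2.60 at the first. Its difference was 1.06 ± 0.21 (adjusted p = 4.92e-04), again with no overlap. The exact permutation p was 0.00216 on both stretches. With spike-in scaling stretch A kept its call (adjusted p = 0.0418) and stretch B did not (0.98, adjusted p = 0.0865).

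Together with 2 C3 probes described below, 6 of the 12 probes were called in this comparison, against 25.4% of all tested probes. The 4 alpha-2-macroglobulin probes rose, against 17.9% of all tested probes called higher, and 2 C3 probes fell, against 7.56% called lower. Groups did not overlap for 4 of the 12 probes, against 11.6% of all tested probes. On each of the 3 slides the first sampling filled 1 row of arrays and the second sampling the other, so the effect of the row cannot be told apart from that of sampling. Summed leukocyte markers were -5.01 to -1.54 at the second sampling and -6.11 to -4.00 at the first in inner fish, neither marker was called, and their part in the difference was not tested.

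At the second sampling the sites were closer. Inner fish had 3.68, 4.02 and 4.32 on stretch A, against 4.02, 4.34 and 4.82 in outer fish. The groups overlapped, and the difference was -0.32 ± 0.18 (95% interval -0.68 to 0.04, adjusted p = 0.338 by limma). Stretch B had -0.37 ± 0.21 (95% interval -0.80 to 0.07, adjusted p = 0.372). In the outer harbour, stretch A had 4.02, 4.34 and 4.82 at the second sampling, against 3.48, 3.93 and 4.53 at the first. That difference was 0.42 ± 0.18 (95% interval 0.05 to 0.78, adjusted p = 0.120), and on stretch B it was 0.42 ± 0.21 (adjusted p = 0.195). It passed with the array median as scaling (0.66, adjusted p = 0.0147 on stretch A, and 0.67, adjusted p = 0.0384 on stretch B). With spike-in scaling it was 0.14 on both stretches (adjusted p = 0.820 on stretch A and 0.838 on stretch B). Without outer fish 3 of the first sampling, the highest at 4.53, stretch A passed too (0.54, adjusted p = 0.0296).

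Whether the site difference changed between samplings was tested directly, as the inner minus outer difference at the second sampling minus that at the first. For stretch A of a-2_macroglobulin this was 0.66 ± 0.25 (adjusted p = 0.0812 by limma), and for stretch B 0.64 ± 0.30 (adjusted p = 0.141). The site difference is therefore not shown to differ between samplings, although it passed at only one of them. Without outer fish 5 of the second sampling, the highest at 4.82, the change for stretch A was 0.75 (adjusted p = 0.0494). It was smaller with the array median (0.38 on stretch A, adjusted p = 0.450, and 0.37 on stretch B) and with the percentile of detected probes (0.37, adjusted p = 0.505, and 0.35 on stretch B). On stretch B quantile normalization gave 0.31, and the values deposited by the authors gave 0.30. Spike-in scaling made it larger but did not bring a call by limma (0.85, adjusted p = 0.279 on stretch A, and 0.84, adjusted p = 0.351 on stretch B).

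**Figure D1:**
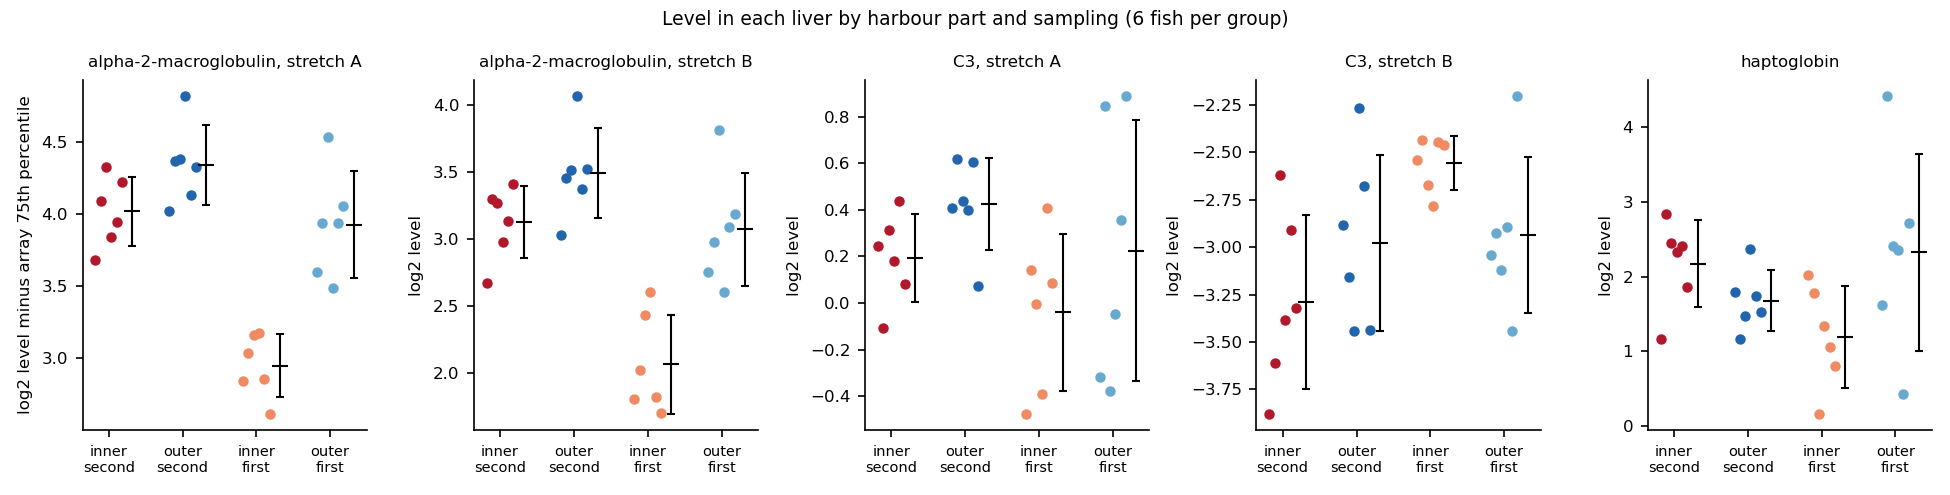
Level of 1 probe per stretch in each liver (y axis, log2 signal minus the array's 75th percentile), with groups on the x axis in the order inner second, outer second, inner first and outer first. Points are fish and bars are mean ± SD (n = 6); axes do not start at 0 and differ between panels. The inner first group of alpha-2-macroglobulin stretch A, 2.61 to 3.18, lies below the other 3 groups, and haptoglobin spreads widest in outer fish of the first sampling, from 0.42 to 4.42.

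C3 differed by the stretch that was read. Within the inner harbour the signal of stretch B was lower at the second sampling than at the first, and no change was called on stretch A. No C3 probe was called in any of the other comparisons.

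Stretch B of C3 had levels of -3.88, -3.35 and -2.62 (lowest, median and highest) in inner fish of the second sampling. The inner fish of the first sampling had -2.78, -2.50 and -2.43. All but 1 of the 6 later fish lay below all the earlier ones, and fish 3 of the second sampling overlapped them. The mean was -3.29 ± 0.46 at the second sampling and -2.56 ± 0.14 at the first (SD, n = 6 each), a difference of -0.73 ± 0.23 (adjusted p = 0.0196 by limma). The other stretch B probe had -0.74 ± 0.23 (adjusted p = 0.0189). The exact permutation p was 0.00649, unadjusted. The call was lost without inner fish 1 of the second sampling, the lowest at -3.88 (-0.61, adjusted p = 0.0553), and with spike-in scaling (-0.82, adjusted p = 0.0810).

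Stretch A of C3 had -0.11, 0.21 and 0.44 in inner fish of the second sampling, against -0.48, 0.04 and 0.41 in inner fish of the first. The groups overlapped over most of their range. The difference was 0.23 ± 0.21 (95% interval -0.20 to 0.67, adjusted p = 0.486 by limma), and it was -0.08 with the 75th percentile over probes detected on all arrays.

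At the first sampling, stretch A of C3 had -0.48, 0.04 and 0.41 in inner fish, against -0.38, 0.15 and 0.89 in outer fish. The difference was -0.27 ± 0.21 (95% interval -0.70 to 0.17, adjusted p = 0.442 by limma). Stretch B had -2.78, -2.50 and -2.43 in inner fish, against -3.44, -2.98 and -2.20 in outer fish. Its difference was 0.38 ± 0.23 (95% interval -0.09 to 0.85, adjusted p = 0.289), and neither stretch was called. With the percentile of detected probes stretch A was -0.014 and stretch B 0.63. Without outer fish 8, stretch A was -0.13.

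At the second sampling, stretch A of C3 had -0.11, 0.21 and 0.44 in inner fish, against 0.07, 0.43 and 0.62 in outer fish (difference -0.23 ± 0.21, adjusted p = 0.649 by limma). Stretch B had -3.88, -3.35 and -2.62 in inner fish, against -3.44, -3.02 and -2.27 in outer fish (difference -0.31 ± 0.23, adjusted p = 0.537). Stretch B passed with quantile normalization (-0.71, adjusted p = 0.0398). In the outer harbour, second minus first sampling gave 0.20 ± 0.21 on stretch A and -0.04 ± 0.23 on stretch B. Neither was called (adjusted p = 0.576 and 0.916). Relative to the median of all tested probes, stretch A was 0.13 to 0.28 over 7 scalings, and stretch B was -0.09 to 0.05, on both sides of 0. Scalings that only shift whole arrays give the same value here by construction. The change of the site difference was 0.03 ± 0.30 on stretch A (adjusted p = 0.958) and -0.69 ± 0.32 on stretch B (adjusted p = 0.145), and stretch B passed with quantile normalization (-1.06, adjusted p = 0.0441).

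The unequal behaviour of the C3 stretches was then read within each array, as the log2 signal of stretch B minus that of stretch A. No scaling factor of an array can alter this quantity, but quantile normalization or another background correction can. It was tested on the unscaled signal only. This quantity was chosen after the levels had been seen. Its own level is set by the probes, and only its differences between fish are read. It ran from -4.13 to -2.93 in inner fish of the second sampling and from -2.85 to -2.07 in inner fish of the first. The groups did not overlap, with means of -3.48 ± 0.39 at the second sampling and -2.52 ± 0.27 at the first, and a difference of -0.96. The exact permutation p was 0.00216, two-sided and the smallest possible, and 0.0173 after Benjamini-Hochberg adjustment over 8 tests on C3 and alpha-2-macroglobulin.

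At the first sampling, the C3 stretch B minus stretch A value averaged -2.52 ± 0.27 in inner fish and -3.16 ± 0.50 in outer fish, with overlapping ranges of -2.85 to -2.07 in inner fish and -3.80 to -2.73 in outer fish. The difference was 0.65 (exact permutation p = 0.0108, adjusted 0.0432). At the second sampling it averaged -3.48 ± 0.39 in inner fish and -3.40 ± 0.44 in outer fish, a difference of -0.08 (exact permutation p = 0.758). In the outer harbour, second minus first sampling gave -0.24 (exact permutation p = 0.374). Inner fish of the first sampling thus had the highest values of the 4 groups on average. In alpha-2-macroglobulin the same quantity differed by -0.04 to 0.01 in the 4 comparisons (exact permutation p from 0.455 to 0.935). Other processing moved the stretches apart. For C3 at the second sampling, quantile normalization gave a site difference of -0.71 on stretch B and -0.20 on stretch A. The deposited values gave -0.69 and -0.20. For alpha-2-macroglobulin between samplings in the inner harbour, quantile normalization gave 0.69 on stretch B and 0.91 on stretch A.

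**Figure D2:**
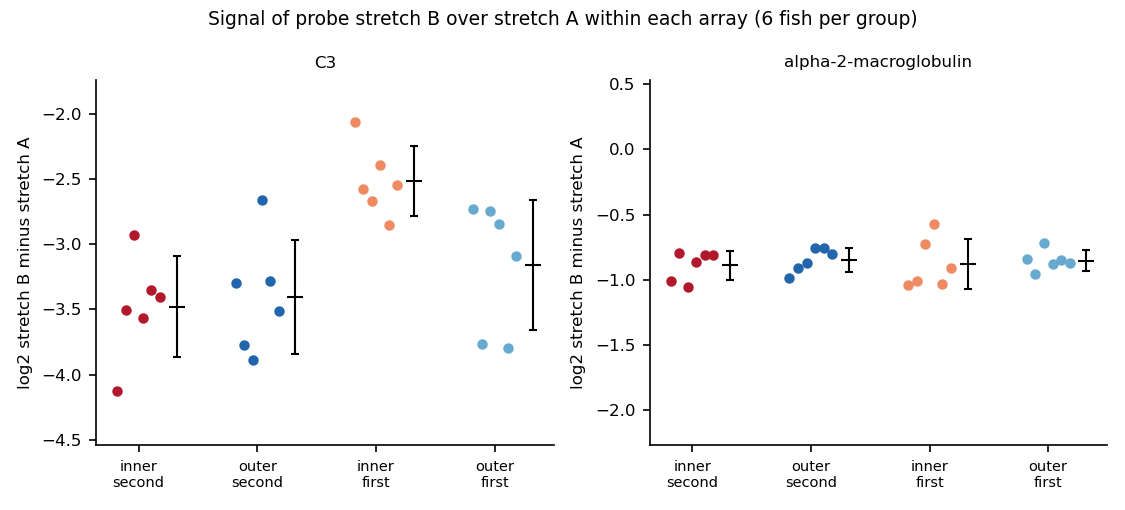
Log2 signal of stretch B minus that of stretch A within each array (y axis), for C3 on the left and alpha-2-macroglobulin on the right, by group on the x axis. Points are fish, bars are mean ± SD (n = 6), and both y axes span the same number of log2 units. For C3 the inner fish of the second sampling, -4.13 to -2.93, lie below the inner fish of the first, -2.85 to -2.07, while the group means of alpha-2-macroglobulin lie between -0.89 and -0.85.

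Haptoglobin had the widest standard error of the 3 genes, and none of its 4 probes was called in any of the 5 comparisons. At the first sampling inner fish had 0.16, 1.20 and 2.03 (lowest, median and highest). The outer fish had 0.42, 2.38 and 4.42. The groups overlapped, and the outer fish spread far wider than the inner fish. The mean was 1.19 ± 0.68 in inner fish and 2.32 ± 1.32 in outer fish (SD, n = 6 each), a difference of -1.13 ± 0.45 (95% interval -2.06 to -0.20, adjusted p = 0.0878 by limma). The exact permutation p was 0.0866, unadjusted. Single outer fish decided the value: without fish 5, the lowest at 0.42, it was -1.51 (adjusted p = 0.0170), and without fish 2, the highest at 4.42, it was -0.71 (adjusted p = 0.261).

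At the second sampling haptoglobin had 1.17, 2.37 and 2.83 in inner fish, against 1.16, 1.63 and 2.37 in outer fish. The ranges overlapped, and the difference was 0.50 ± 0.45 (95% interval -0.43 to 1.43, adjusted p = 0.649 by limma). Its sign was opposite to that at the first sampling. The change of the site difference was 1.63 ± 0.64 (95% interval 0.31 to 2.95, adjusted p = 0.0884), and without outer fish 5 of the first sampling it was 2.01 (adjusted p = 0.0215).

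Within the inner harbour haptoglobin had 1.17, 2.37 and 2.83 at the second sampling, against 0.16, 1.20 and 2.03 at the first. The groups overlapped. The difference was 0.98 ± 0.45 (95% interval 0.05 to 1.91, adjusted p = 0.110 by limma, exact permutation p = 0.0260 unadjusted). It passed without outer fish 2 of the first sampling, which enters this comparison only through the shared spread (adjusted p = 0.0499). Slide by slide it ran from 0.10 to 1.64. Within the outer harbour haptoglobin had 1.16, 1.63 and 2.37 at the second sampling, against 0.42, 2.38 and 4.42 at the first, a difference of -0.65 ± 0.45 (95% interval -1.58 to 0.28, adjusted p = 0.399). Without outer fish 2 of the first sampling it was -0.23, without outer fish 5 of the first sampling -1.03 (adjusted p = 0.0836), and with the array median -0.40.

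Over all 3 genes, limma called 0 of the 12 probes for the site difference at the second sampling, where 12.8% of all tested probes were called. Of the 12, 0 had an unadjusted p under 0.05, beside 96 of all 476 tested probes, and exact permutation p-values on the 5 stretches ran from 0.0563 to 0.271. In the outer harbour limma called 0 of the 12 between samplings, against 16.6% of all tested probes. There 3 of the 12, all of alpha-2-macroglobulin, had an unadjusted p under 0.05, beside 130 of all 476, and exact permutation p-values ran from 0.0606 to 0.866. For the change of the site difference limma called 0 of the 12, against 12.2% of all tested probes. There 10 of the 12 and 144 of all 476 had an unadjusted p under 0.05. Those 10 are all but the probes of C3 stretch A, and probes of the same stretch are repeat readings. The comparisons share groups, so their counts are not independent. The shares over all tested probes depend on the scaling of the arrays, as described below.

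**Figure D3:**
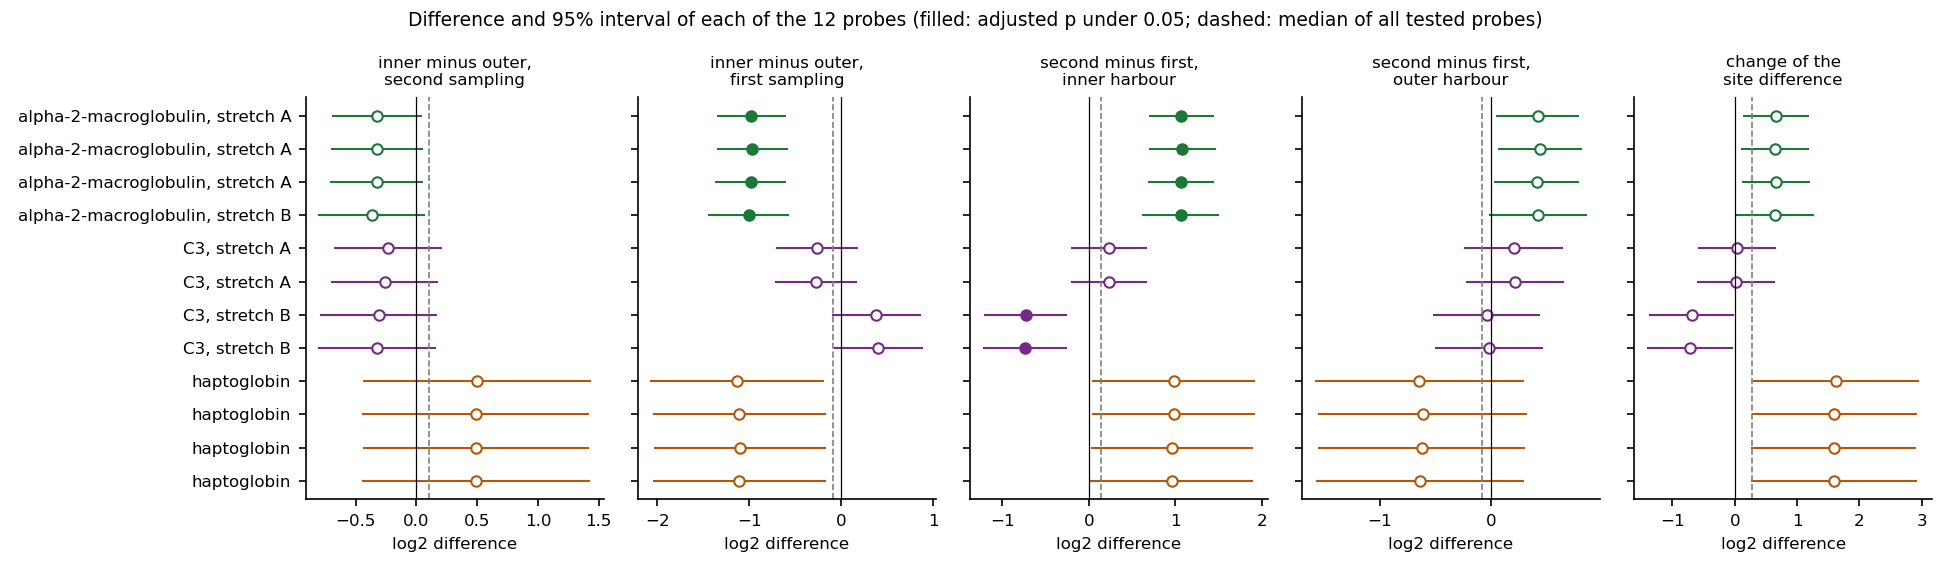
Log2 difference (x axis) with its 95% interval from limma for each of the 12 probes (rows) in the 5 comparisons. Filled points have an adjusted p under 0.05, and the dashed line is the median of all 476 tested probes. The 4 alpha-2-macroglobulin probes are filled at the first sampling (-1.01 to -0.97) and between samplings in the inner harbour (1.06 to 1.08), where the 2 probes of C3 stretch B are filled on the other side of 0.

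The scaling of the arrays moved the median of all probes. Over 7 scalings the median difference of all tested probes ran from -0.12 to 0.16 for the sites at the first sampling and from -0.04 to 0.26 at the second. Between samplings it ran from -0.17 to 0.14 in the inner harbour and from -0.36 to 0.16 in the outer harbour. Scalings by a percentile, the array median or spike-ins shift whole arrays, so relative to that median they give the same value by construction. Only quantile normalization, the deposited values and the other background correction could give a different value. Relative to that median, stretch A of a-2_macroglobulin was -0.94 to -0.86 for the sites at the first sampling and 0.92 to 0.94 between samplings in the inner harbour. Its stretch B varied more, from -0.99 to -0.71 for the sites and from 0.70 to 0.92 between samplings. Stretch B of C3 was -0.99 to -0.74 between samplings in the inner harbour, and haptoglobin was -1.09 to -0.88 for the sites at the first sampling. The split of all calls between directions also moved. At the first sampling inner fish had 25 probes called higher and 44 called lower, whereas the array median gave 25 higher and 10 lower, the percentile of detected probes 32 higher and 5 lower, and spike-ins 10 higher and 1 lower. Between samplings in the inner harbour 85 were higher and 36 lower, whereas the percentile of detected probes gave 37 higher and 56 lower, and spike-ins 41 higher and 29 lower.

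**Figure D4:**
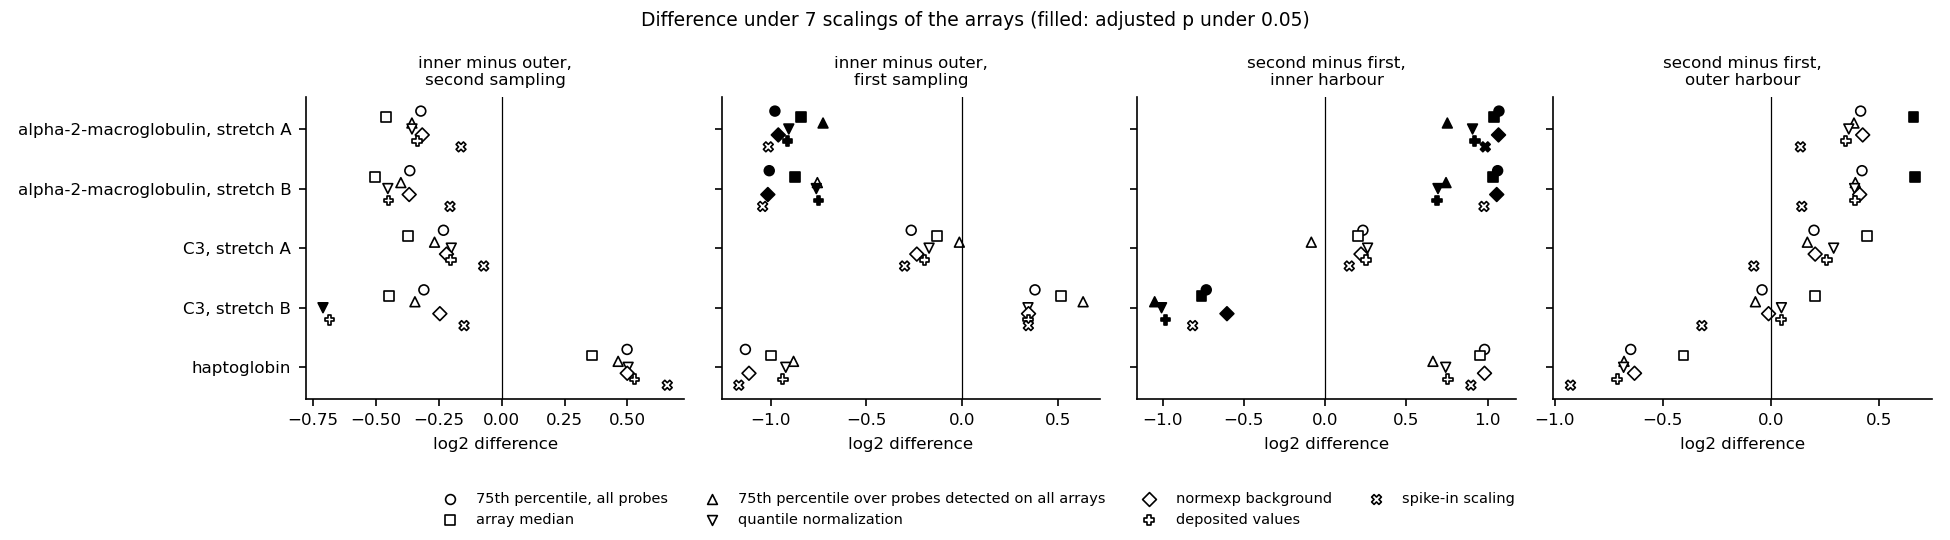
Log2 difference (x axis) of 1 probe per stretch (rows) in 4 comparisons, under 7 ways of scaling the arrays (symbols); filled symbols have an adjusted p under 0.05. Stretch A of alpha-2-macroglobulin stays between -1.01 and -0.73 for the sites at the first sampling and is filled under 6 of the 7 scalings, the exception being spike-ins.

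The 2 stretches of alpha-2-macroglobulin followed each other across the 24 arrays (r = 0.983, and 0.945 for deviations from the group means). The 2 stretches of C3 did so far less (0.143 and 0.410). Between genes, stretch A of alpha-2-macroglobulin had r = 0.366 with haptoglobin over the arrays and 0.187 for deviations from the group means. All such values share arrays and their scaling factors, and they describe these 24 arrays only.

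Of the 126 other tested genes, the 3 whose level was most like that of a-2_macroglobulin over the 24 arrays were cyclin_G1 (r = 0.725), Beta-actin (0.704) and Cu-Zn_SOD (0.677). For deviations from the group means these were 0.407, 0.436 and 0.252. The 3 most like C3, on its stretch A, were Peroxiredoxine (0.690), PABP (0.685) and ribosomal_protein_S21 (0.684), which had 0.644, 0.674 and 0.693 for the deviations. The 3 most like Haptoglobin were HGF (0.504), IGF_II (0.465) and VEGF (0.464), with 0.548, 0.265 and 0.286 for the deviations.

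Other genes for acute phase proteins, complement and immunity, innate and adaptive, were set beside the members. The list was matched by name patterns and held 15 genes, of which 14 were tested. HSC70, a chaperone, entered only because its name holds the letters c7, and the counts here leave it out. Each gene counts through its brightest tested probe. The shares over all tested probes count probes, so a gene with several probes enters them several times, and shares over genes are not given. Of the remaining 13 genes, 0 were higher and 4 lower in inner than in outer fish at the first sampling, with a median difference of -0.66 against -0.09 over all tested probes, of which 5.25% were called higher and 9.24% lower. With HSC70 (-0.75 ± 0.24) they were 5 of 14. These counts hold for the 75th percentile over all probes as scaling. With spike-in scaling only 1 of all tested probes was called lower, so at most 1 of the 4 genes can have passed there as lower. The percentile of detected probes gave 5 called lower, 3 of them member probes, so the 4 genes cannot all have passed with it. Members and lists were chosen with earlier results of these data known, so these counts are a description.

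The 4 lower genes were Transferrin, the iron carrier of plasma (-0.94 ± 0.26, adjusted p = 0.0249 by limma), Inf-kappa-ba (-0.94 ± 0.21, adjusted p = 0.00820), Liza_aurata_immunoglobulin (-1.29 ± 0.39, 1 of 2 probes called) and MHC_II (2 of 4 probes called). INFkappaB? had 3 of 4 probes called and Leukotriene_A4_hydrolase 2 of 4, but their brightest probes did not pass. The immunoglobulin and MHC_II, an antibody gene and an antigen presentation gene of adaptive immunity, are also the leukocyte markers above. The clotting proteins did not pass: Beta-Fibrinogen had -0.17 ± 0.15, Fibrinogen_G -0.17 ± 0.15 and Prothrombin -0.24 ± 0.17. Nor did Hepcidin (-1.03 ± 0.80), Mhc2 (-1.04 ± 0.67) and TNF? (-0.28 ± 0.35). Complement_Bf/C2, named for the complement proteases that act with C3, had 0.06 ± 0.20 at the first sampling and -0.54 ± 0.20 at the second (adjusted p = 0.0938). At the second sampling 0 of the 13 passed in either direction, against 12.8% of all tested probes. Hepcidin had -2.10 ± 0.80 there (adjusted p = 0.101 by limma).

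Between samplings in the inner harbour 1 of the 13 was higher, Transferrin (0.78 ± 0.26, adjusted p = 0.0298 by limma), and 0 were lower, against 17.9% of all tested probes higher and 7.56% lower. Transferrin was also the 1 gene of the 13 called for the change of the site difference (1.28 ± 0.37, adjusted p = 0.0264 by limma), against 12.2% of all tested probes. Its values under other scalings are not given here. Alpha-2-macroglobulin had the same signs in these comparisons, without passing the last. In other comparisons the signs were opposite, and none of those values was called. For the sites at the second sampling Transferrin had 0.33 and stretch A of a-2_macroglobulin -0.32. Between samplings in the outer harbour Transferrin had -0.50 and that stretch 0.42. In the outer harbour 0 of the 13 passed between samplings, against 16.6%. Hepcidin went opposite to Transferrin between samplings in the inner harbour, -1.95 ± 0.80, without a call (adjusted p = 0.0762 by limma).

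**Figure D5:**
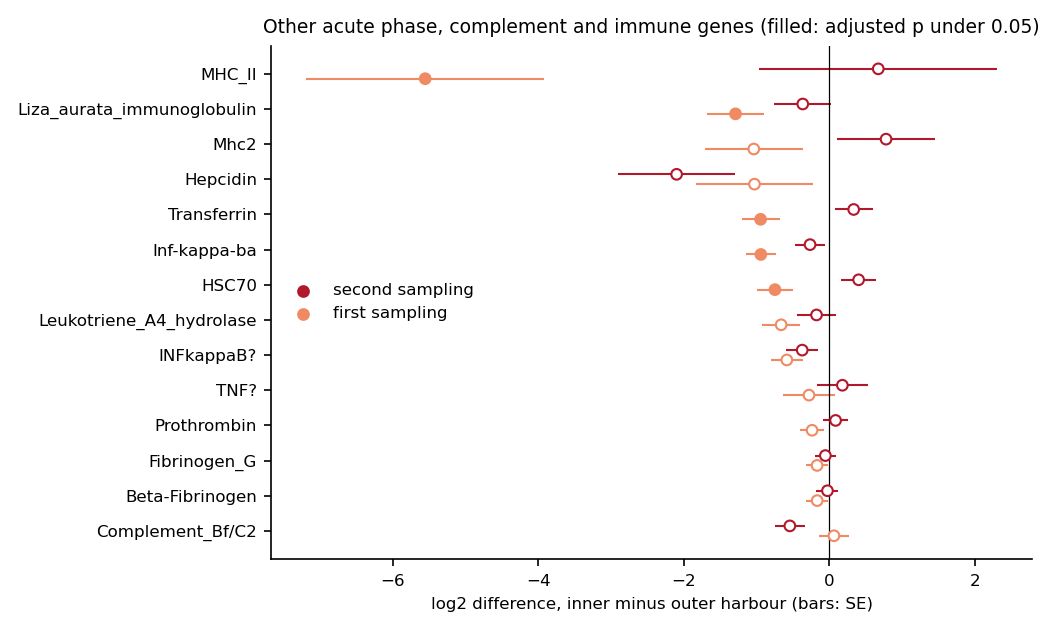
Log2 difference between inner and outer fish (x axis, bars are SE) for the 14 tested genes of the acute phase, complement and immunity list, HSC70 included, at the second and at the first sampling. Filled points have an adjusted p under 0.05: 5 genes at the first sampling, all lower in the inner harbour, and 0 at the second. Other scalings of the arrays are not shown, and with spike-ins only 1 of all tested probes was called lower at the first sampling. The size for MHC_II at the first sampling is not resolved, with 1 of 6 inner fish well above background.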

How the data were processed

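The spot intensity values were deposited by the authors as scanner output of Agilent Feature Extraction 9.5.3.1, already background-subtracted and detrended within each array, per the file headers. The authors also deposited a log2 table, used as an alternative. Every one of its 24 columns correlated best with the array it is named for (r of at least 0.992). How it was normalized and centred is not given in the sources used.

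Spots marked as uneven or as outliers (40 to 125 per array, and 22 of 1152 member spots) were left out, and 0 spots were saturated. A probe's level is the mean log2 signal of its spots less the 75th percentile of that array. Testing required 50% or more of a probe's spots to be well above background on 6 or more arrays, which kept 476 probes in 129 genes. The number of arrays limits the precision. All 24 arrays entered 1 limma 3.58.1 model (R 4.3.3) with the 4 groups as coefficients and a shared estimate of the spread, and p-values were adjusted by Benjamini-Hochberg, two-sided. The fit was also run on simulated data, for the site difference at the first sampling only. The simulated noise was independent between probes, so that run does not bear on the scaling of the arrays. Exact permutation tests used 924 relabelings.

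All member probes were reported in every comparison, and each gene was shown through its brightest probe, with the brightest probe of a second stretch where it had one, which was added after values had been seen. The 3 other genes with the highest r to each member were named. The members and lists were chosen with earlier results of these data known. Alternatives were 6 other scalings or background corrections, kept spots, no filter and a stricter filter on dim probes, fits to the compared groups only, slide and sample number as blocks, and leaving out each fish.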

Additional observations from a re-analysis of the deposited data

How the results depend on the processing

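Of the 12 member probes, those called changed as follows. For the sites at the first sampling 4 were called, 0 with spike-in scaling, and 4 to 8 with 1 fish left out (8 without outer fish 5). For the sites at the second sampling 0 were called, and 2 with quantile normalization. Between samplings in the inner harbour 6 were called, 3 with spike-in scaling, and 4 to 8 with 1 fish left out. Between samplings in the outer harbour 0 were called, 4 with the array median, and 0 to 3 with 1 fish left out (3 without fish 3 of the first sampling). For the change of the site difference 0 were called, 1 with the array median, 2 with quantile normalization, and 0 to 4 with 1 fish left out (4 without outer fish 5 of the first sampling, and 1 without outer fish 5 of the second). Alpha-2-macroglobulin kept its calls at both stretches for the sites at the first sampling and between samplings in the inner harbour in all 24 fits that left out 1 fish. Uncalled C3 values changed sign. Stretch A between samplings was -0.085 in the inner harbour (75th percentile over detected probes) and -0.079 in the outer harbour (spike-ins). Stretch B in the outer harbour was 0.20 (array median), 0.049 (quantile), 0.048 (deposited values) and -0.18 to 0.11 with 1 fish left out. The change of the site difference on stretch A was -0.24 (array median), -0.25 (75th percentile over detected probes), -0.029 (quantile), -0.0070 (deposited values) and -0.10 to 0.15 with 1 fish left out. Relative to the median of all tested probes, which moves with the scaling, stretch A was 0.08 to 0.28 between samplings in the inner harbour. In the outer harbour it was 0.13 to 0.28, and for the change of the site difference -0.24 to -0.09. Scalings by a percentile, the array median or spike-ins give the same value here by construction. Its sign could be lost only with quantile normalization, the deposited values or the other background correction. The C3 stretch B minus stretch A value, tested on the unscaled signal only, was -0.19 to 0.070 for the sites at the second sampling with 1 fish left out. In the inner harbour between samplings it was -1.07 to -0.84, past an unadjusted exact permutation p of 0.05 in all 12 such tests. The cause of these changes was not tested. The sample numbers do not pair the groups: deviations of 29 same-numbered pairs correlated with r from -0.36 to 0.39 (median 0.016), against a median of 0.022 in other pairs. With the sample number as a replicate block 4 probes were called for the sites at the first sampling and 4 between samplings in the inner harbour, where C3 stretch B had -0.59 (adjusted p = 0.0906 by limma), and 0 were called in the other comparisons. For the change of the site difference, a fit to the compared groups only is the same as the fit to all arrays and was not run.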
